A study of Mus musculus with 8 samples.

Results

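A microRNA host transcript is the long RNA from which a microRNA hairpin is cut, and 7 such transcripts were followed here in mouse knee cartilage. Dnm3os, Wwp2, H19, Meg3, Rian, Mirg and Mir17hg were taken by gene name from a table of 50462 gene identifiers, as hosts of microRNAs studied in the skeleton, and each matched 1 identifier. The rule named genes and set no level or change, but earlier results of these data were known when they were chosen. The libraries were made from cartilage caps of the medial knee of male, wild-type C57BL/6J mice, with 4 mice in each of 2 groups and 1 library per mouse. Naïve mice were untreated and were sampled at day 0, when 11 weeks old. DMM mice were sampled at day 42, when 17 weeks old, after destabilisation of the medial meniscus (DMM), an operation in which the ligament tying the medial meniscus to the tibia of the left knee is cut and which leads to osteoarthritis. No sham-operated mice were analysed here, so the effects of surgery and of 42 days of age cannot be told apart.

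MicroRNAs are short RNAs that guide Argonaute proteins to partly matching messenger RNAs, mostly through the seed near their 5′ end, and lower the output of those messages. The hairpin is released from the host in the nucleus by Drosha and Dgcr8, exported by Xpo5 with Ran, and cut to its mature length by Dicer1. In skeletal tissue miR-140, carried by Wwp2, is known as a microRNA of chondrocytes, and loss of Dnm3os, which carries miR-199a and miR-214, impairs skeletal growth in mice. H19 and the Meg3, Rian and Mirg group are imprinted and are expressed from the maternal chromosome, whereas Mir17hg carries the miR-17 to miR-92a cluster, known for its part in cell proliferation.

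The mature microRNAs that each host carries are shown because 1 host can carry several of them. Whether a change in a host reaches each of its products was not tested. Sequences are from RefSeq (GRCm38.p6), written 5′ to 3′, with the seed, bases 2 to 8, in capitals. Dnm3os carries products of 2 hairpins.
mmu-miR-199a-5p: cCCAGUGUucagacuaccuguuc
mmu-miR-199a-3p: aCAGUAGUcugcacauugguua
mmu-miR-214-5p: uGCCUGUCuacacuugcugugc
mmu-miR-214-3p: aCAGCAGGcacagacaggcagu
Wwp2 carries miR-140-5p and miR-140-3p.
mmu-miR-140-3p: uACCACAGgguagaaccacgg
H19 carries the products of 1 hairpin.
mmu-miR-675-5p: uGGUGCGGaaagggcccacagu
mmu-miR-675-3p: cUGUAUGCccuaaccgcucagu
From the imprinted group, examples from Meg3, Rian and Mirg are shown in that order, with a pair for Mirg.
mmu-miR-770-3p: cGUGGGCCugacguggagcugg
mmu-miR-370-3p: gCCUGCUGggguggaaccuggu
mmu-miR-134-5p: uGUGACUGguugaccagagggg
mmu-miR-410-3p: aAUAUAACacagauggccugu
Mir17hg carries 6 hairpins, whose main products are grouped here by seed.
mmu-miR-17-5p: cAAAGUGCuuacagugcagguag
mmu-miR-20a-5p: uAAAGUGCuuauagugcagguag
mmu-miR-18a-5p: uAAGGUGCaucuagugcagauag
mmu-miR-19a-3p: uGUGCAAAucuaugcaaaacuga
mmu-miR-19b-3p: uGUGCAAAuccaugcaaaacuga
mmu-miR-92a-3p: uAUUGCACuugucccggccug

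Shared seeds were few among the 53 mature entries inside the hosts. The seed AAAGUGC was common to miR-17-5p and miR-20a-5p, and GUGCAAA to miR-19a-3p and miR-19b-3p, all 4 of them from Mir17hg. The remaining shared seed, GGUUGCC, joined miR-453 and miR-496a-5p, both inside Mirg. No seed was common to different hosts among these entries, which do not include miR-140-5p. The seed of miR-199a-5p was carried by 2 of the 1738 mature entries listed from RefSeq, a count of entries and not of loci. Besides Mir199a-2 in Dnm3os, mouse has Mir199b at chr2:32318460-32318569, inside Dnm1, and Mir199a-1 at chr9:21496495-21496564, inside Dnm2. Both lie on the strand opposite to the dynamin gene.

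The hosts differ in how the hairpins sit in the transcript, which bears on what a count of the host can say about them. In the GENCODE vM21 annotation (GRCm38), 28 hairpins lay inside the 7 hosts on the same strand. With the exons of all transcripts of a host merged, 15 were within an exon, 8 in an intron and 5 across the edge of an exon. The hairpin of miR-1906, a mature entry inside Meg3, was not among the 28. Mir199a-2 was inside an exon of 2 of the 3 Dnm3os transcripts that span it. Both hairpins of Dnm3os (Mir199a-2 at chr1:162217814-162217923, Mir214 at chr1:162223368-162223477) and all 6 of Mir17hg were exonic. Mir140 (chr8:107551244-107551313) was inside an exon of 1 of the 4 Wwp2 transcripts that span it. Mir675 (chr7:142577064-142577147) was exonic in 3 of 4 spanning H19 transcripts. All 3 hairpins of Rian were intronic, and the 14 of Mirg were of all 3 kinds. Each of the 28 hairpins had an entry of its own in the count table, and each was listed at 0 in all 8 libraries. The values below are therefore those of the long hosts, and no mature microRNA was measured in these libraries.

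**Figure D1:**
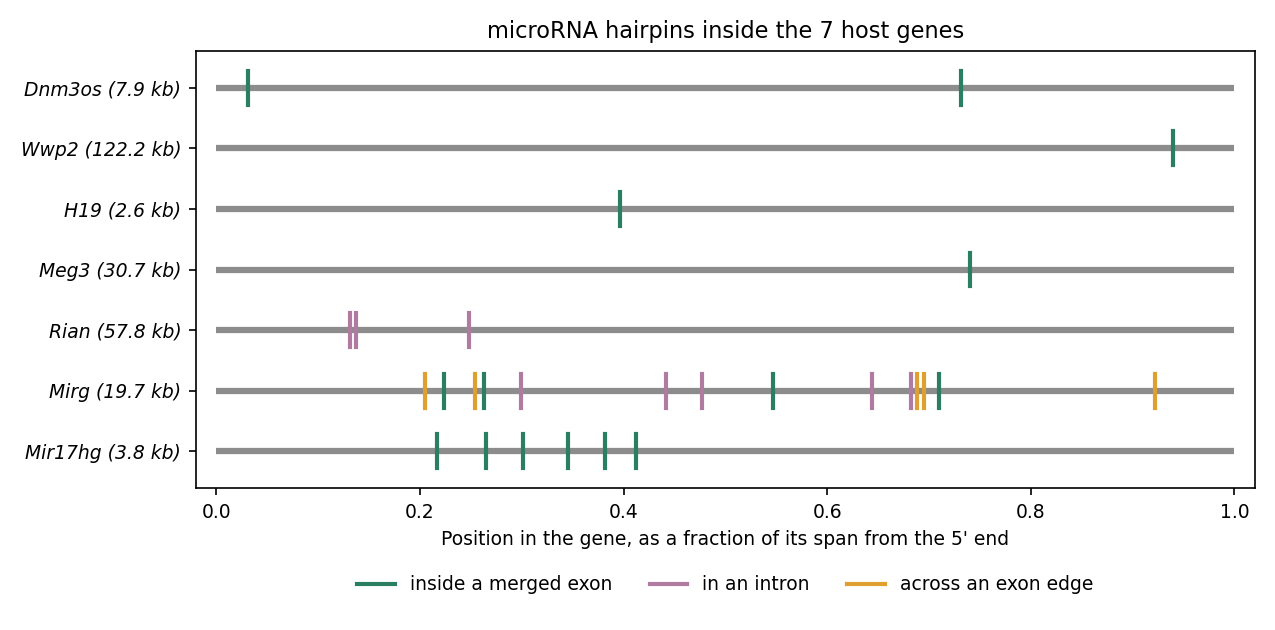
Position of the 28 annotated hairpins along the 7 hosts, as a fraction of each gene's span from its 5′ end, with the span in kilobases beside the name; colour marks whether the hairpin is in an exon, in an intron or across an exon edge. Mirg holds 14 hairpins of all 3 kinds, whereas the 6 of Mir17hg and the 2 of Dnm3os are in exons.

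The libraries held between 12479443 and 16548002 estimated counts. Counts normalised with DESeq2 size factors, which put the libraries on a common scale, are given throughout as normalised counts, and a gene was called at an adjusted p of 0.05 or less with a change of 1.5-fold or more. Of 17350 genes with an adjusted p, 14.0% were called, 7.89% higher and 6.07% lower in DMM, and the groups did not overlap for 22.5%. The labels name chondrocytes, and 6 of 11 tested chondrocyte markers were called higher in DMM, whereas Matn1 had at most 9 counts in a library. Of the 5 not called, Prg4, Col9a1 and Matn3 were at log2 fold changes of -0.54, -0.36 and -0.29. The others, Hapln1 and Chad, were at 0.79 and 0.4. The summed chondrocyte list took 0.624 to 1.07% of counts in naïve and 1.08 to 1.6% in DMM libraries. Other cells were represented too. Erythroid markers took 1.07 to 1.8% in naïve and 0.594 to 1.26% in DMM libraries (8 of 9 called lower), and neutrophil lineage markers 0.914 to 1.27% and 0.44 to 0.911% (10 of 12 called lower). Synovial fibroblast markers took 0.836 to 1.28% and 2.42 to 3.5% (5 of 8 called higher), and osteoblast and osteocyte markers 0.141 to 0.21% and 0.341 to 0.612% (8 of 10 called higher). Col1a1 and Col3a1 made up most of the counts of the fibroblast list, and which cells made these collagens was not tested. The 3 fibroblast markers not called were Pi16, Htra4 and Cd55, at log2 fold changes of -0.35, -0.39 and 0.24. Pi16 had a DESeq2 adjusted p of 0.00944 but was under the fold threshold. None of the markers listed in the table was at 0 in all libraries. In these bulk samples, fewer cells of a type and less RNA per cell cannot be told apart.

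Among the 7 hosts, Dnm3os was called higher in DMM and the other 6 were not called, a share of 14.3% beside the 14.0% of all genes tested. All 7 hosts had enough counts to be tested. Their log2 fold changes ran from -0.31 for Mir17hg to 0.88 for Dnm3os, with a median of 0.31 beside -0.02 over all genes tested. At an adjusted p of 0.05 or less and any fold the count of hosts was the same, 1 of 7, beside 23.1% of genes tested. Dnm3os was also the only host whose groups did not overlap, 1 of 7 beside 22.5% of genes tested.

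**Figure D2:**
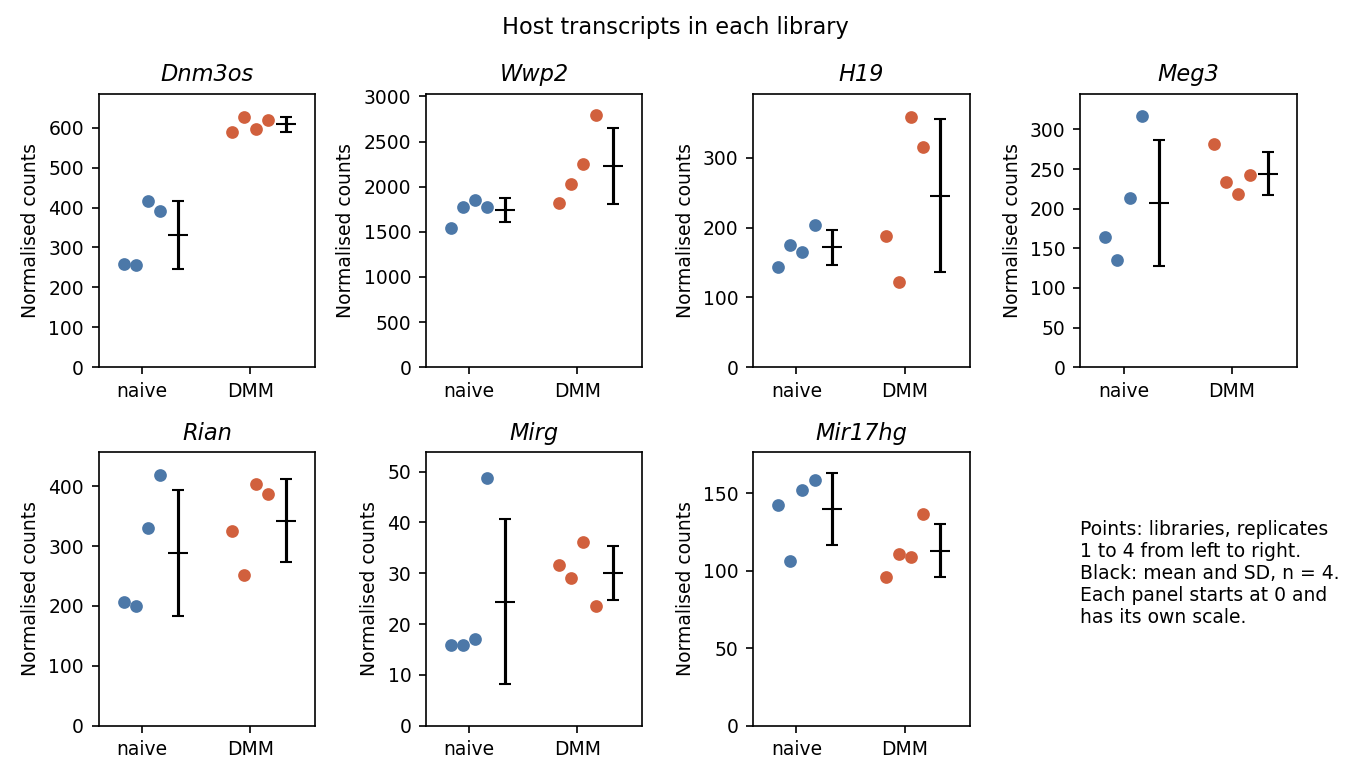
Normalised counts of the 7 hosts in each library; points are mice, replicates 1 to 4 from left to right, and black bars give the mean and SD (n = 4). The 4 DMM values of Dnm3os (588.8 to 627.8) lie above all naïve values (255.4 to 415.3), and the groups overlap in the other 6 panels.

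Dnm3os (ENSMUSG00000078190, chr1:162217623-162225550, + strand) is a non-coding RNA transcribed from within Dnm3, on the opposite strand. It had 259.4, 255.4, 415.3 and 391.2 normalised counts in naïve replicates 1 to 4, and 588.8, 627.8, 597.7 and 618.2 in DMM replicates 1 to 4. Every DMM library was above every naïve library. The naïve libraries fell into a lower pair and a higher pair, whereas the DMM libraries were close together, with a coefficient of variation of 3.0% beside 25.7% in naïve. The mean rose from 330.3 ± 84.8 to 608.1 ± 18 (SD, n = 4 each), a log2 fold change of 0.88 (SE 0.17, 95% interval 0.54 to 1.22, DESeq2 adjusted p = 1.6e-05), or 1.84-fold. The change lay at percentile 92.0 of all genes tested by absolute size. Leaving out any of the 8 libraries kept the call, with log2 fold changes of 0.78 to 1.01.

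The share of chondrocyte markers is given beside Dnm3os for each library. In naïve replicates 1 to 4 these markers took 0.624, 0.672, 0.856 and 1.07% of counts, and in DMM replicates 1 to 4 they took 1.08, 1.17, 1.48 and 1.6%. This share is a sum of counts, so the most abundant markers weigh most in it, and single markers did not run alike. Prg4 had 40810, 30380, 53600 and 96850 normalised counts in naïve replicates 1 to 4, the highest in replicate 4. Col2a1 had 15100, 36990, 25890 and 17950, the highest in replicate 2. Dnm3os was lower in naïve replicates 1 and 2 than in 3 and 4, as was the summed share. Replicate 4 had a larger share and less Dnm3os than replicate 3. In DMM the chondrocyte share varied while Dnm3os hardly did. Osteoblast and osteocyte markers took 0.159, 0.141, 0.208 and 0.21% of counts in naïve replicates 1 to 4. They took 0.341, 0.342, 0.445 and 0.612% in DMM replicates 1 to 4. The synovial fibroblast list took 0.836, 1.28, 1.09 and 0.964% in naïve and 3.5, 2.63, 3.27 and 2.42% in DMM replicates 1 to 4. With the mean log2 level of the neutrophil and erythroid markers as a covariate, the log2 fold change of Dnm3os was 0.55 and was not called (DESeq2 adjusted p = 0.625). That covariate was higher in every naïve than in every DMM library, and only 0.962% of genes tested were called in that fit. The part of the chondrocyte, fibroblast and osteoblast markers in the difference was not tested.

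The promoter windows of the hosts, from 250 bases before to 50 bases after the RefSeq start, were searched on both strands for the CArG box of the serum response factor Srf, for TGACGTCA, the full cyclic AMP response element, and for CACGTG, the E-box bound by Myc. RefSeq had 7 windows for 6 of the hosts, and the motifs were chosen after those windows had been read. Matches are printed with the motif in capitals and its first base counted from the start, on GRCm38.p6, because they are short landmarks at the starts of the hosts.
Dnm3os, CArG box from -33, chr1:162217580-162217609, + strand: tgacatcatcCCATATATGGactctccagc
Meg3, TGACGTCA from -57, chr12:109540928-109540957, + strand: gcagaatgcgcTGACGTCAaagaccacccc
Meg3, CArG box from -94 of another start, chr12:109545294-109545323, + strand: tcctttcacaCCTAAATAGGcatttcaaaa
Wwp2, CACGTG from -6, chr8:107436352-107436381, + strand: accgcgcacgccCACGTGacccggcccgag
Of 32851 promoters searched, 1.63% held a CArG box, 1.79% held TGACGTCA and 7.15% held CACGTG. A match is a string of letters and was not tested as a binding site.

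The genes around the miR-199 loci were compared next. Dnm3 (chr1:161982453-162478034, − strand) encodes dynamin 3, a GTPase that pinches membrane vesicles, and surrounds Dnm3os. It had 44.85, 49.22, 81.34 and 110 normalised counts in naïve and 125.2, 98.9, 90.55 and 132.7 in DMM libraries, and the groups overlapped. Its log2 fold change of 0.65 (SE 0.29) was not called (DESeq2 adjusted p = 0.0907). Without naïve replicate 4 it was called, at 0.94. Dnm1, the neuronal dynamin, had 481, 528.2, 727.8 and 932 normalised counts in naïve and 1134, 866.4, 1147 and 861.9 in DMM libraries. It was called higher (log2 fold change 0.59, SE 0.21, DESeq2 adjusted p = 0.0253), but its groups overlapped. That call was made in 4 of 8 fits with 1 library left out, and was lost without naïve replicates 1 or 2 or DMM replicates 1 or 3. It was also lost with edgeR, limma-voom, no independent filtering and the neutrophil and erythroid covariate. Dnm2, the ubiquitous dynamin, was not called (log2 fold change -0.24, SE 0.1, DESeq2 adjusted p = 0.0773). Naïve replicates 1 and 2 were the lowest of the group for Dnm3os, Dnm3 and Dnm1 alike. Whether strand was used in counting was not stated, so reads of Dnm3os and of the Dnm3 introns around it are not known to have been kept apart by strand.

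Wwp2 (ENSMUSG00000031930, chr8:107436365-107558595, + strand), the protein-coding host of miR-140, encodes a ubiquitin ligase of the HECT class. It was the most abundant host, with 1548, 1780, 1856 and 1777 normalised counts in naïve and 1819, 2032, 2248 and 2799 in DMM libraries. All DMM libraries but replicate 1 were above the naïve range. The mean was 1740 ± 133 in naïve and 2225 ± 421 in DMM (SD, n = 4 each). The log2 fold change of 0.35 (SE 0.14, 95% interval 0.07 to 0.64), or 1.28-fold, was under the 1.5-fold threshold. The DESeq2 adjusted p of 0.0553 missed its threshold too. Over all the alternatives the adjusted p of Wwp2 ran from 0.0057, with DESeq2 on total-count size factors, to 0.34. It passed with those factors, with TMM factors (DESeq2 adjusted p = 0.041) and without DMM replicate 1 (DESeq2 adjusted p = 0.0171). The log2 fold changes there, 0.51, 0.38 and 0.44, were under the fold threshold. With the neutrophil and erythroid covariate the log2 fold change of 0.61 passed, but the DESeq2 adjusted p of 0.34 did not. Wwp2 was called in none of the 8 fits that left out a library. Its paralog Wwp1, another HECT ligase, was not called either (log2 fold change 0.18, DESeq2 adjusted p = 0.335).

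H19 (ENSMUSG00000000031, chr7:142575529-142578143, − strand) is an imprinted long non-coding RNA and host of miR-675. It had 143.3, 175.6, 164.8 and 203 normalised counts in naïve and 187.4, 122.5, 358.1 and 315 in DMM libraries. The DMM mice split, with replicates 3 and 4 above the naïve range, replicate 1 inside it and replicate 2 below it. The means were 171.7 ± 24.8 and 245.8 ± 110 (SD, n = 4 each), and the log2 fold change of 0.52 (SE 0.29, 95% interval -0.05 to 1.09) was not called (DESeq2 adjusted p = 0.194). The value depended on single DMM mice. Without DMM replicate 2 it was called, at 0.74 (DESeq2 adjusted p = 0.0159), without replicate 3 it was 0.28 (DESeq2 adjusted p = 0.535) and without replicate 4 it was 0.38 (DESeq2 adjusted p = 0.424). With the neutrophil and erythroid covariate it was 1.2 (DESeq2 adjusted p = 0.34). Its imprinted neighbour Igf2, which encodes a growth factor and is expressed from the paternal chromosome, had 50.36 ± 17.7 normalised counts in naïve and 50.82 ± 13.9 in DMM (SD, n = 4 each). For Igf2 63.1% of the 31-base words of its transcripts also occurred in another gene, mainly Gm49394, so its count is uncertain. For the 7 hosts that share was 0.5 to 11.4%.

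Meg3, Rian and Mirg follow each other on chromosome 12, on the + strand, between the paternally expressed genes Dlk1 and Dio3. Meg3 (ENSMUSG00000021268, chr12:109541001-109571726) had 163.6, 135.7, 213 and 316.3 normalised counts in naïve and 282, 233.3, 219 and 242.8 in DMM libraries. Rian (ENSMUSG00000097451, chr12:109603940-109661716), which also carries small nucleolar RNAs, had 206.7, 199.6, 329.6 and 419.5 in naïve and 325.1, 251.5, 404.2 and 387.2 in DMM libraries. Mirg (ENSMUSG00000097391, chr12:109729764-109749460) had 15.83, 15.96, 17.12 and 48.76 in naïve and 31.51, 29.02, 36.22 and 23.47 in DMM libraries. In all 3 genes naïve replicate 4 was the highest of the 8 libraries, and the DMM values lay inside the naïve range.

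None of the 3 was called. The log2 fold change was 0.24 (SE 0.24, 95% interval -0.23 to 0.7) for Meg3, with a DESeq2 adjusted p of 0.535. For Rian it was 0.24 (SE 0.25, 95% interval -0.24 to 0.73), with a DESeq2 adjusted p of 0.54. For Mirg, the least abundant host, it was 0.31 (SE 0.43, 95% interval -0.53 to 1.14), with a DESeq2 adjusted p of 0.676. These intervals reach beyond a 1.5-fold rise, so a rise of that size lies within the error of these data. The estimates depended on single naïve mice. Without naïve replicate 4 the log2 fold change was 0.51 for Meg3 (DESeq2 adjusted p = 0.0364, under the fold threshold), 0.48 for Rian and 0.88 for Mirg (DESeq2 adjusted p = 0.0893). Without naïve replicate 1 the values for Meg3, Rian and Mirg were 0.14, 0.11 and 0.14, and without naïve replicate 2 they were 0.09, 0.11 and 0.16. Over the 8 fits with 1 library left out, Meg3 ran from 0.09 to 0.51, Rian from 0.11 to 0.48 and Mirg from 0.14 to 0.88. With the neutrophil and erythroid covariate the sign turned for Meg3, to -0.53 (DESeq2 adjusted p = 0.739), and for Mirg, to -0.37 (DESeq2 adjusted p = 0.982).

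The protein-coding genes of the same domain were scarce. Rtl1, a retrotransposon-derived gene on the − strand between Meg3 and Rian, was not called (log2 fold change -0.32, DESeq2 adjusted p = 0.557). Dlk1, which encodes a Notch-related membrane protein, had 4.787 ± 1.65 normalised counts in naïve and 8.655 ± 2.59 in DMM (SD, n = 4 each). Dio3, which inactivates thyroid hormone, had 2.409 ± 2.43 and 1.881 ± 2.17 (SD, n = 4 each). Dlk1 and Dio3 were too low to receive an adjusted p from DESeq2.

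Mir17hg (ENSMUSG00000089726, chr14:115042879-115046727, + strand) was the only host with a lower mean in DMM. It had 142.5, 106.4, 152 and 158.7 normalised counts in naïve and 96.2, 110.7, 108.7 and 136.3 in DMM libraries. Naïve replicate 2 lay among the DMM values, while the other naïve libraries were above all of them. The mean was 139.9 ± 23.3 in naïve and 113 ± 16.8 in DMM (SD, n = 4 each), and the log2 fold change of -0.31 (SE 0.19, 95% interval -0.69 to 0.06) was not called (DESeq2 adjusted p = 0.249). Over the 8 fits with 1 library left out it stayed between -0.42 and -0.24. All 8 tested markers of proliferating cells were called lower in DMM, where they took 0.165 to 0.241% of counts beside 0.261 to 0.373% in naïve, and their part in the level of Mir17hg was not tested.

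**Figure D3:**
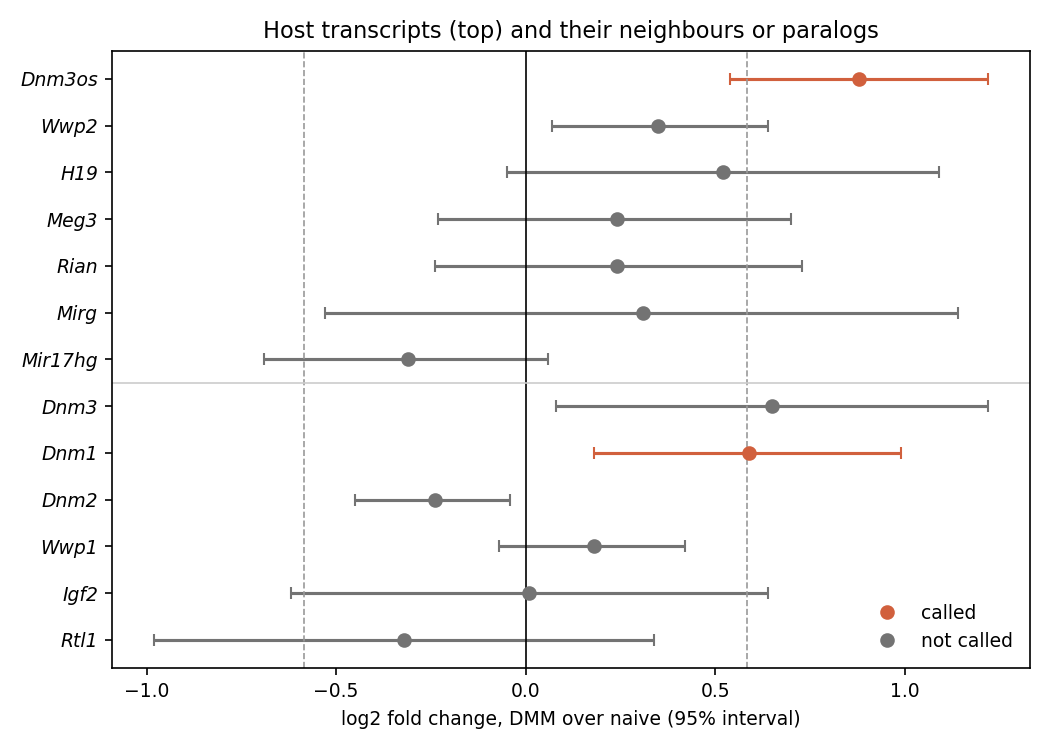
Log2 fold change, DMM over naïve, with its 95% interval from DESeq2, for the 7 hosts above the line and their tested neighbours and paralogs below it; dashed lines mark 1.5-fold. Dnm3os (0.88) and Dnm1 (0.59) were called, and the intervals of H19, Meg3, Rian, Mirg and Mir17hg include 0.

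The order of the hosts was examined on normalised counts per kilobase of merged exons. In naïve libraries Wwp2 led with 196 ± 15.0, followed by H19 with 69.8 ± 10.1, Dnm3os with 41.7 ± 10.7 and Mir17hg with 39.6 ± 6.59 (SD, n = 4). Rian, Meg3 and Mirg followed with 15.8 ± 5.79, 11.5 ± 4.39 and 3.35 ± 2.23 per kilobase. The order was the same in DMM, with means of 251 ± 47.5 for Wwp2, 99.9 ± 44.5 for H19, 76.7 ± 2.27 for Dnm3os, 31.9 ± 4.76 for Mir17hg, 18.8 ± 3.8 for Rian, 13.5 ± 1.49 for Meg3 and 4.12 ± 0.728 for Mirg. Neighbours in this order did not always differ beyond their spread. Dnm3os (32.2 to 52.4) overlapped Mir17hg (30.1 to 44.9) in naïve libraries and lay well above it in DMM (74.3 to 79.2 beside 27.2 to 38.5). In DMM the range of H19 (49.8 to 146) took in that of Dnm3os, and Rian and Meg3 overlapped in both groups. Scaled by the longest transcript instead, Rian passed Mir17hg in DMM (42.3 beside 31.9).

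Ratios between a host and a neighbour or paralog within a library do not depend on the scaling between libraries, and 5 were compared. Dnm3os over Dnm3 was 5.74, 5.13, 5.08 and 3.54 in naïve and 4.69, 6.32, 6.57 and 4.65 in DMM libraries. The groups overlapped, with a log2 difference of 0.19 (two-sided exact permutation test, p = 0.371, adjusted over the 5 ratios 0.75). Rian over Meg3 was 1.26, 1.47, 1.55 and 1.33 in naïve and 1.15, 1.08, 1.84 and 1.59 in DMM libraries, a log2 difference of -0.01 (exact p = 0.971, adjusted 0.971). The log2 difference of Mirg over Meg3 was 0.15 (exact p = 0.6, adjusted 0.75), that of Wwp2 over Wwp1 0.17 (exact p = 0.4, adjusted 0.75) and that of H19 over Igf2 0.36 (exact p = 0.486, adjusted 0.75). No ratio separated the groups. The smallest p that 4 against 4 libraries allow in this test is 0.0286.

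**Figure D4:**
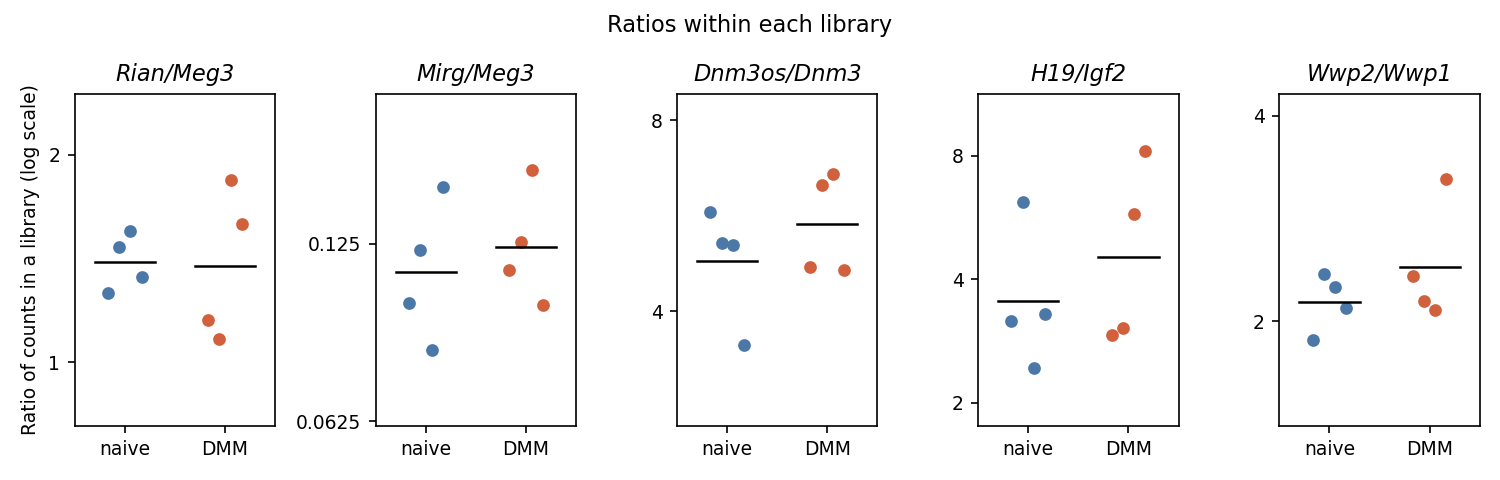
Ratio of the counts of a host to those of its neighbour or paralog in each library (log2 axis), naïve and DMM; black lines give the mean on the log2 scale (n = 4). All 5 ratios overlap between the groups, and H19 over Igf2 has the widest spread, from 2.43 to 8.22.

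For each host, the genes with the most similar profile over the 8 libraries were sought by the root mean square difference of centred log2 normalised counts, among 11014 genes. Stard13 (0.092) and BC034090 (0.093) lay nearest to Dnm3os, against a median of 0.571 over all genes compared. Ldlrad3 and Lxn (both 0.083, median 0.331) were nearest to Wwp2, and Ftx (0.094) and Meis1 (0.097, median 0.332) to Mir17hg. Ftx is itself a long non-coding host of microRNAs, near Xist. Peg3 (0.112) and Ecm2 (0.142, median 0.472) were nearest to Rian, and Gm14391 (0.111) and Mill2 (0.12, median 0.452) to Meg3. Peg3 is a paternally expressed imprinted gene, and had 667.2 ± 195 normalised counts in naïve and 777.9 ± 150 in DMM (SD, n = 4 each). The nearest genes to H19, Snx7 (0.217) and Gnpnat1 (0.242, median 0.543), and to Mirg, Aox1 (0.221) and Epb41l1 (0.236, median 0.595), were less close. Among the hosts themselves Meg3 and Rian were the closest pair, at 0.241, followed by Meg3 and Mirg at 0.313. Pairs from different chromosomes came next, with Wwp2 and Rian at 0.333 and H19 and Rian at 0.357. Rian and Mirg were farther apart, at 0.373.

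Genes acting on the hosts were examined as lists. Of 19 tested genes of microRNA processing and the Argonaute complex, none was called higher and 2 were called lower (10.5%, median log2 fold change -0.09). Over all genes tested these values were 14.0% and -0.02. The calls of Ran and Lin28a were both lost with the neutrophil and erythroid covariate, with which 0.962% of all genes tested were called. Ran, the GTPase that loads Xpo5 with its cargo, fell from 2911 ± 449 to 1934 ± 195 normalised counts (SD, n = 4 each; log2 fold change -0.59, SE 0.13, DESeq2 adjusted p = 0.000209), just past the fold threshold. Its call was lost without naïve replicates 1 or 2 or DMM replicates 1 or 2, and it was made in 2 of 8 other settings, not with edgeR or limma-voom. Lin28a, which blocks maturation of let-7, fell from 262.8 ± 45.7 to 145.6 ± 32.7 (SD, n = 4 each; log2 fold change -0.85, SE 0.2, DESeq2 adjusted p = 0.000502), with groups that did not overlap. Drosha, Dgcr8, Dicer1 and Ago2 were not called, at log2 fold changes of -0.17, -0.16, 0.05 and -0.3; these were named after their values were seen.

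Of 13 tested transcription factors known to act on the hosts, 2 were called higher and 3 lower (38.5%, median log2 fold change -0.33). The share over all genes tested was 14.0%, with a median of -0.02. Sox9, the chondrocyte factor that acts on Wwp2 and miR-140, rose from 839.1 ± 53.1 to 1764 ± 459 normalised counts (SD, n = 4 each; log2 fold change 1.07, SE 0.18, DESeq2 adjusted p = 5.23e-07). Twist1, a mesenchymal factor that acts on Dnm3os, rose from 112.1 ± 26.3 to 259.2 ± 45.2 (SD, n = 4 each; log2 fold change 1.22, SE 0.22, DESeq2 adjusted p = 1.08e-06). Both were above the naïve range in all 4 DMM libraries. With the neutrophil and erythroid covariate Sox9 was still called, whereas Twist1 was not, nor was any other factor of the list. In that fit 0.962% of all genes tested were called. Among the factors of Mir17hg, E2f1, which drives entry into S phase, fell from 309.1 ± 80.9 to 178.9 ± 14.2 (SD, n = 4 each; log2 fold change -0.79, SE 0.19, DESeq2 adjusted p = 0.000544). Mycn and E2f2 were called lower too, at -0.72 and -0.68. Myc (-0.4, DESeq2 adjusted p = 0.0933) and Srf (-0.09, DESeq2 adjusted p = 0.681) were not called. The other Sox factors of the list were not called either. Sox6 was lower, at -0.57 (DESeq2 adjusted p = 0.00544), with groups that did not overlap, but was under the fold threshold. Sox5 was at 0.34 (DESeq2 adjusted p = 0.246). Mycn, E2f2, Myc, Srf, Sox6 and Sox5 were named after their values were seen.

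Further lists set the 7 hosts beside genes of their kind, with 14.0% called and a median of -0.02 over all genes tested. Of 35 other tested microRNA hosts, 8 were called higher and 2 lower (28.6%, median log2 fold change 0.13). With the total count as size factor 11 were called higher and 0 lower, beside 2027 and 488 over all genes. With the neutrophil and erythroid covariate all 10 calls were lost, and 0.962% of all genes tested were called. Col27a1, a fibrillar collagen gene that hosts miR-455, rose from 1253 ± 245 to 2861 ± 560 normalised counts (SD, n = 4 each; log2 fold change 1.19, SE 0.18, DESeq2 adjusted p = 3.25e-09). Copz2, which hosts miR-152, rose from 169.2 ± 23.7 to 321 ± 31.7 (SD, n = 4 each; log2 fold change 0.93, SE 0.15, DESeq2 adjusted p = 1.87e-07). Mcm7, a replicative helicase subunit and host of the miR-106b cluster, which is related to that of Mir17hg, fell from 2455 ± 425 to 1482 ± 201 (SD, n = 4 each; log2 fold change -0.73, SE 0.15, DESeq2 adjusted p = 4.23e-05), but was not called with the total count as size factor. Smc4, the other host called lower, was at -0.68, also lost its call with the total count, and was named after its value was seen.

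The imprinted growth genes, a list that holds H19, Meg3, Rian and Mirg as well, had 4 of 21 tested members called higher and 1 lower (23.8%, median log2 fold change 0.24). All genes tested had 14.0% called and a median of -0.02. Grb10, a maternally expressed adaptor that restrains insulin signalling in most tissues, rose from 573 ± 79.8 to 1180 ± 140 normalised counts (SD, n = 4 each; log2 fold change 1.04, SE 0.14, DESeq2 adjusted p = 3.5e-11). Igf2r, a maternally expressed receptor that clears Igf2, rose from 1667 ± 143 to 2598 ± 313 (SD, n = 4 each; log2 fold change 0.64, SE 0.12, DESeq2 adjusted p = 3.79e-06), and was not called without DMM replicate 3 or with the neutrophil and erythroid covariate. Gatm, an enzyme of creatine synthesis, fell from 410.9 ± 33 to 240.3 ± 60 (SD, n = 4 each; log2 fold change -0.77, SE 0.19, DESeq2 adjusted p = 0.000474). Mest and Cdkn1c were the others called higher, at 1.07 and 0.63, and were named after their values were seen. With that covariate Grb10 alone of the list was still called, and 0.962% of all genes tested were called. None of the 4 imprinted hosts was among the calls.

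**Figure D5:**
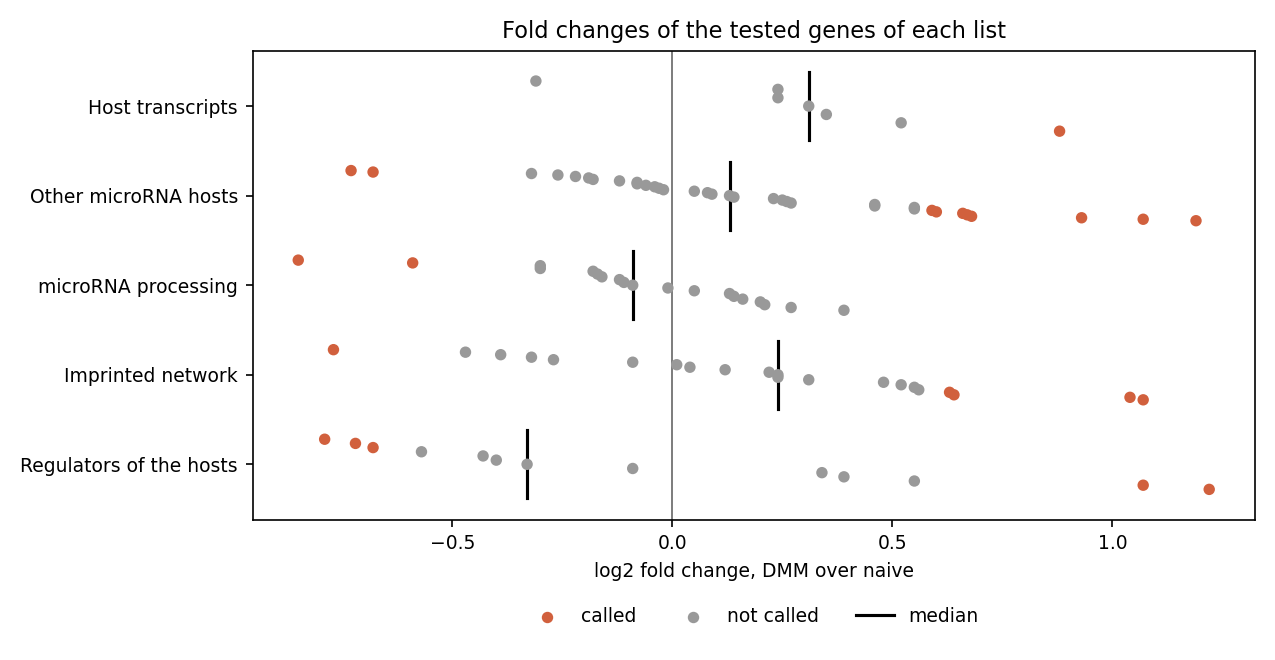
Log2 fold change, DMM over naïve, of every tested gene in the 7 hosts and the 4 related lists; colour marks called genes and the black line the median of the list. The medians lie between -0.33 for the transcription factors and 0.31 for the hosts, and every list holds genes on both sides of 0.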

How the data were processed

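RNA was measured in 8 libraries, each from a separate mouse. The authors deposited estimated counts per gene, made, by the methods of the study, by trimming with Trimmomatic, pseudo-alignment with Kallisto and summing of transcripts with tximport. Reads compatible with more than 1 transcript are shared out by Kallisto, and 39.0% of the deposited values were not whole. The methods name GRCm38, whereas the submitters' processing notes list GRCh38, kallisto and DESeq2; the identifiers are those of mouse. The labels name a low input kit and the methods a SMART-Seq kit, and the counting strand was not stated. All 8 columns were mapped to samples by title, leaving 0 unassigned. A symbol was found for 48855 of 50462 identifiers, and coordinates are from GENCODE vM21 (GRCm38), looked up by identifier.

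Rounded estimated counts entered the Wald test of DESeq2 version 1.42.0 (R version 4.3.3) with its own size factors and default filters (unshrunken log2 fold changes, p-values adjusted over all genes), with no covariate, as in the study's methods. Libraries of a group differed by more than counting noise (chi-square per degree of freedom 7.34 to 40.84). Ratios had 0.5 added to each count and were tested by exact permutation over all 70 assignments with SciPy version 1.17.1. Similarity was taken over genes averaging 100 normalised counts or more, after adding 1 and taking log2. Lists were described by counts and medians, with no set test. The steps were tested on simulated data.

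The named genes were all hosts, their neighbours and paralogs, the 3 called genes with the smallest adjusted p in each list, and the 2 genes most similar to each host. The hosts and lists were chosen with earlier results of these data known. Alternatives were edgeR version 4.0.16 (quasi-likelihood test), limma-voom (limma version 3.58.1), total-count or TMM size factors, no independent filtering, filterByExpr, no fold threshold, the replicate number as a block, the neutrophil and erythroid level as a covariate, and leaving out each library. Replicate numbers did not pair the mice.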

Additional observations from a re-analysis of the deposited data

Results flagged for a closer look

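Within groups of 4, a library was marked where its gap to the nearest other library, divided by the range of the group, passed Dixon's 95% critical value. Of 66 groups examined 4 had such a library, and chance gives about 1 in 20 groups, or 3.3 here. Mirg had 48.76 normalised counts in naïve replicate 4, beside 15.83 to 17.12 in the other naïve libraries. Copz2 had 133.7 in naïve replicate 1, beside 179.8 to 182.5. Sox9 had 918.3 in naïve replicate 3, beside 804.9 to 817. Naïve replicate 2 had 16770 genes with 10 or more counts, beside 18280 to 18470 in the other naïve libraries.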

How the results depend on the processing

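The number of hosts called was 1 in the reported fit, 1 to 2 with 1 library left out (2 without DMM replicate 2, when H19 was called) and 0 with the neutrophil and erythroid covariate. With that covariate Dnm3os was at 0.55 (log2, DESeq2 adjusted p = 0.625), Meg3 turned to -0.53 and Mirg to -0.37. Processing genes called numbered 2, and 1 with edgeR, limma-voom, TMM factors, the total count or the block, 0 with the covariate, and 1 to 2 with a library left out. Other hosts called numbered 10 (8 higher, 2 lower), 11 (11 higher, 0 lower) with the total count, 0 with the covariate and 6 to 11 with a library left out, the lowest without naïve replicate 1. Imprinted genes called numbered 5, 8 with the total count, 1 with the covariate (Grb10) and 3 to 6 with a library left out, the lowest without DMM replicate 3. Transcription factors called numbered 5, 9 without a fold threshold, 1 with the covariate (Sox9) and 3 to 7 with a library left out, the lowest without naïve replicate 2. Over all genes 2422 were called (1369 higher, 1053 lower), 154 with the covariate, 4016 without a fold threshold, and 2515 (2027 higher, 488 lower) with the total count, for which the median over genes averaging 10 counts or more went from -0.01 to 0.14 (log2). Libraries with the same replicate number had correlations of -0.12 to 0.12 between their deviations from the group means and only share a number. With the replicate number as a block 2079 genes were called and Dnm3os was at 0.91 (log2, DESeq2 adjusted p = 5.93e-05). No ratio changed its side of the threshold under another pseudocount or without rounding. The cause of these shifts was not tested. Mirg, with the fewest counts, had the widest interval.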
